A study of Mus musculus with 24 samples.

Results

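Under saline, with no ligand given, interscapular brown adipose tissue of 6 Th-Cre mice was compared with that of 6 wild-type (WT) mice, 12 of the 24 mice of the study. The libraries were chosen by their labels alone, genotype and treatment, and each group held 3 males and 3 females. WT mice are labelled C57Bl/6J, and Th-Cre mice B6.129X1- Tht1(cre)Te/Kieg, a line in which Cre recombinase is expressed from the tyrosine hydroxylase (Th) locus, so that Cre acts in catecholamine-making cells. All mice were 6 to 8 months old, and tissue was taken 30 minutes after the saline injection. The other 12 mice (6 of each genotype) were given deschloroclozapine (DCZ), which activates designer receptors made from muscarinic ones. The labels give no designer receptor and no route for one, do not say whether WT mice carried it or were littermates, and hold no RNA integrity values. WT libraries bear the numbers 1 to 12 and Th-Cre libraries the numbers 13 to 24, so genotype and any difference between these blocks of library numbers cannot be told apart in any result below.

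Brown adipose tissue makes heat: noradrenaline from sympathetic nerves acts on adrenergic receptors of the adipocytes, cAMP and protein kinase A (PKA) release fatty acids, and uncoupling protein 1 (Ucp1) lets mitochondria burn them without making ATP. The same cells also take up glucose and make new fatty acids, and a dense bed of vessels supplies them. Th, the enzyme that makes the precursor of noradrenaline, is transcribed in the nerve cell bodies, which lie in ganglia outside the tissue.

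Total estimated counts ran from 13.2 to 18.8 M in WT saline and from 11.9 to 18.7 M in Th-Cre saline libraries. Levels are given as CPM, counts per M of effective library size, and a gene is called, or said to have risen or fallen in Th-Cre mice, at an adjusted p under 0.05 by edgeR's quasi-likelihood test. Th had 0 reads in all 12 saline libraries, so the locus that carries Cre could not be checked from its own transcript. The brown adipocyte markers Ucp1, Cidea, Cox8b, Elovl3 and Kcnk3 summed to 6509 to 9111 CPM in WT and 4766 to 6636 CPM in Th-Cre libraries. Skeletal muscle transcripts stood out in 4 saline libraries, WT 12 and Th-Cre DN2087, DN2094 and DN2086: the 15 markers averaged 2.58 to 6.29 on the log2 CPM scale there and -0.65 or less in the other 8. WT saline 2 lay nearer to the Th-Cre libraries than the other 5 WT libraries in several gene groups, and its values are given with them. The Y-linked genes matched the labelled sex in all 24 libraries.

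Between the genotypes 3213 of 13129 tested genes were called (24.5%), 1614 higher (12.3%) and 1599 lower (12.2%) in Th-Cre mice. With upper-quartile factors in place of TMM, 1371 were higher and 1934 lower, and with RLE factors 1705 and 1527. Most differences were small: 81.4% of the called genes differed by less than 1.5-fold, and 142 differed by more than 2-fold, 72 up and 70 down. Against a fold of 1.2 instead of no change (edgeR glmTreat), 136 genes were called (1.04%). The 6 Th-Cre libraries lay wholly above or wholly below the 6 WT libraries for 728 tested genes (5.54%). Without the 6 libraries of the series that held muscle transcripts, which leaves 3 Th-Cre and 5 WT saline libraries, 278 genes were called (2.07%), while all 3213 genes called with every library kept their direction in the remaining ones, which are part of the same data. The plot of gene lists gives, for each list, the share of members called in each direction.

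**Figure D1:**
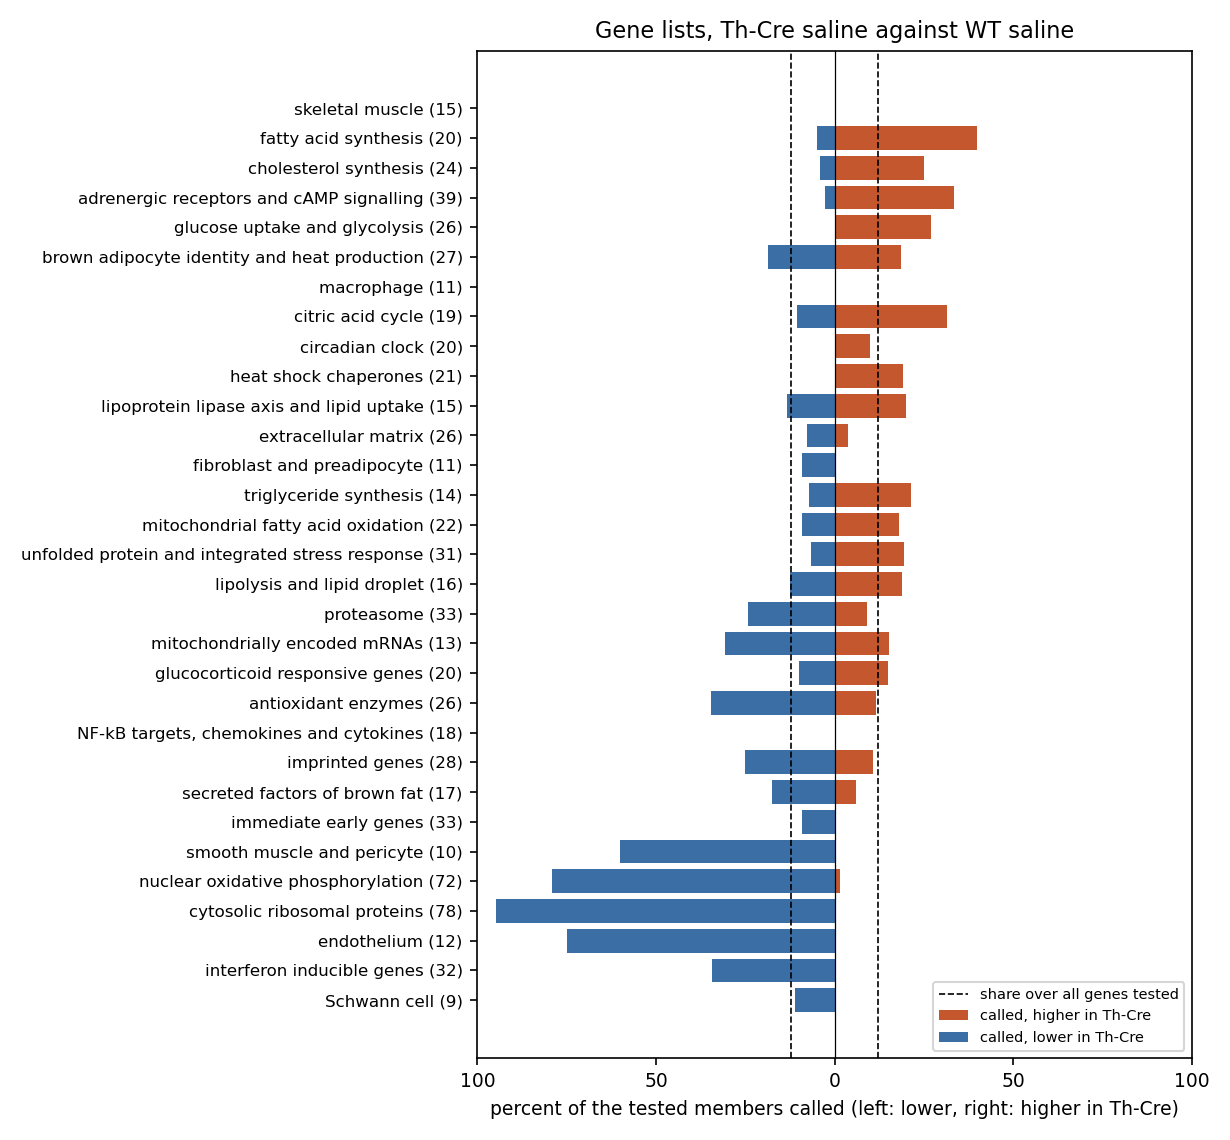
For each gene list with at least 9 tested members, the share of these called higher (right) or lower (left) in Th-Cre than in WT saline mice, in percent, with the number of tested members in brackets and lists in the order of their median log2 fold change. Dashed lines mark the shares over all genes tested, 12.3% higher and 12.2% lower; ribosomal protein and nuclear oxidative phosphorylation genes reach furthest to the left, and fatty acid synthesis and adrenergic and cAMP signalling genes furthest to the right among the lists plotted.

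Apart from immunoglobulin genes, the largest rise among named genes with a mean log2 CPM of at least 1 was that of Ube2ql1, a gene of the ubiquitin-conjugating enzyme family (chromosome 13, 69702832 to 69739889, minus strand, GRCm38). Its level was 0.609 to 2.13 CPM in WT (median 1.36) and 9.88 to 31.3 in Th-Cre libraries (median 19.4). All 6 Th-Cre libraries lay far above the WT range, and the fitted ratio was 14.5 (log2 fold change 3.85 ± 0.52 SE, adjusted p = 0.000424). Scn4b, a beta subunit of voltage-gated sodium channels, was at 0.843 to 4.2 CPM in WT (median 1.55) and 2.15 to 13.8 in Th-Cre libraries (median 5.83), with overlapping ranges (log2 fold change 1.80 ± 0.253 SE, adjusted p = 0.000308). Pakap, which makes an anchor protein for PKA and shares its locus with Palm2 and Akap2 so that reads could be shared among them, stood 3.53 times higher (log2 fold change 1.82 ± 0.468 SE, adjusted p = 0.00919). In the 8 saline libraries with no muscle transcripts Ube2ql1 (3.82, adjusted p = 0.0263) and Scn4b (1.82, adjusted p = 0.0263) were still called, while Pakap (1.44, adjusted p = 0.18) was not.

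Ripk4 fell most among named genes. This kinase of epithelial differentiation (chromosome 16, 97741933 to 97763787, minus strand) was at 3.35 to 9.13 CPM in WT (median 4.67) and 0.194 to 2.7 in Th-Cre libraries (median 0.984). Every Th-Cre library lay below every WT library (log2 fold change -2.16 ± 0.398 SE, adjusted p = 0.00134). Rsc1a1, a regulator of solute carriers whose gene lies inside Ddi2, was at 1.68 to 4.4 CPM in WT (median 3.72) and 0 to 1.87 in Th-Cre libraries (median 0.758), with a slight overlap (log2 fold change -1.95 ± 0.426 SE, adjusted p = 0.00307). Pcdhgc4, a cell adhesion protein of the protocadherin gamma cluster whose variants share exons (chromosome 18, 37815079 to 37841873, plus strand), stood at 26.9 to 43.8 CPM in WT (median 40) and 8.28 to 22.1 in Th-Cre libraries (median 11.3), without overlap (log2 fold change -1.49 ± 0.23 SE, adjusted p = 0.000798). Tceal8 and Armcx3, both on the X chromosome, fell by 1.24 and by 0.86 on the log2 scale, both with separate ranges (adjusted p = 0.000308 and 0.000241). Nepn, a leucine-rich secreted protein, fell by 1.18 (adjusted p = 0.000186) and Exoc3l2, an exocyst-like protein of endothelium, by 1.12 (adjusted p = 0.000963).

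The 5 smallest p-values were those of Diaph1, Osbp, Nepn, Armcx3 and Gpd1l. Diaph1, a formin that assembles actin, was at 29.3 to 37.2 CPM in WT (median 31.7) and 42.7 to 49 in Th-Cre libraries (median 45.4) (log2 fold change 0.50 ± 0.0622 SE, adjusted p = 0.000186). Osbp, an oxysterol-binding lipid carrier, was at 29.9 to 42.3 CPM in WT (median 33.5) and 47.8 to 56 in Th-Cre libraries (median 50.1) (log2 fold change 0.55 ± 0.0726 SE, adjusted p = 0.000186). Gpd1l, a relative of glycerol-3-phosphate dehydrogenase, rose by 0.58 ± 0.0811 (adjusted p = 0.000303). In each of these, as in Nepn and Armcx3, the groups did not overlap. All 5 were also called without the muscle libraries.

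**Figure D2:**
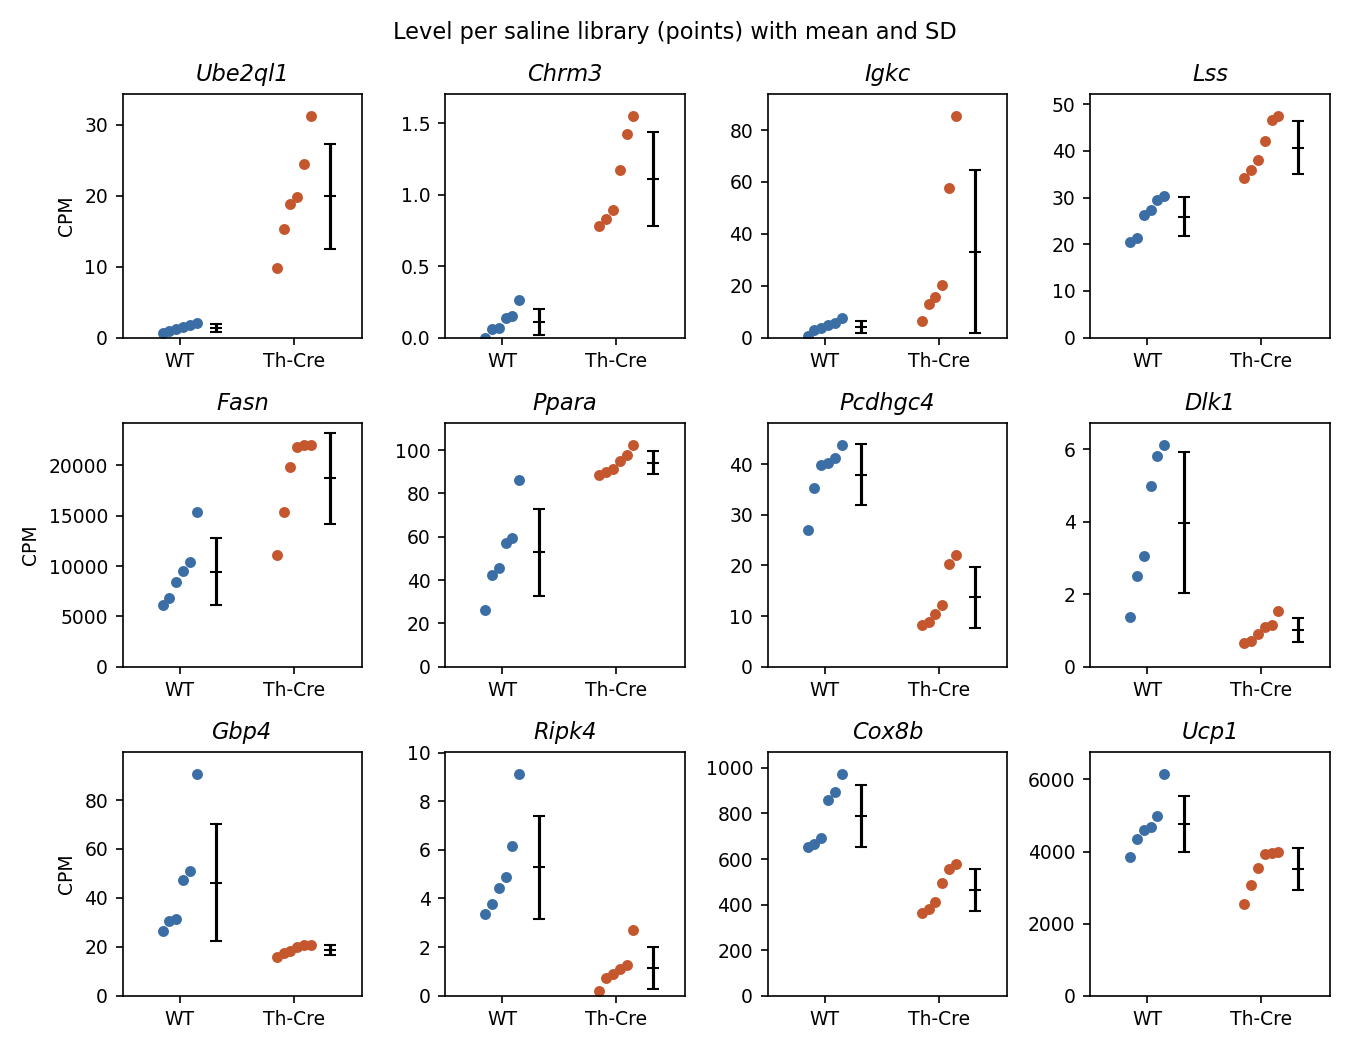
Level of 12 named genes in CPM (linear axes from 0) in each WT (blue) and Th-Cre (orange) saline library, sorted by value within a group, with the mean and SD of 6 libraries as a bar at the right. Ube2ql1, Chrm3, Lss, Ppara, Pcdhgc4, Gbp4, Ripk4 and Cox8b show no overlap between genotypes, while Igkc, Fasn, Dlk1 and Ucp1 do.

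Muscarinic receptors were looked at because designer receptors derive from them. Chrm3, the Gq-coupled muscarinic receptor (chromosome 13, 9875486 to 10360847, minus strand), was rare in every library, at 11 reads over the 6 WT and 102 reads over the 6 Th-Cre saline libraries. Its level was 0 to 0.263 CPM in WT (median 0.1) and 0.778 to 1.55 in Th-Cre libraries (median 1.03), with no overlap (log2 fold change 3.23 ± 0.578 SE, adjusted p = 0.001). Among mice given DCZ it averaged 0.0653 ± 0.021 CPM in WT and 2.21 ± 1.74 in Th-Cre mice (SD, n = 6). It was too rare there for the fit of the DCZ libraries alone. Chrm1, Chrm2, Chrm4 and Chrm5 had 6, 0, 4 and 0 reads in WT and 0, 1, 0 and 0 in Th-Cre saline libraries. Whether reads of a designer receptor were assigned to Chrm3 was not tested, as its sequence is not in the table.

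Transcripts of the sympathetic neurons themselves were at or near 0. Over the 12 saline libraries Dbh had 2 reads, Npy 2, Slc6a2 (the noradrenaline transporter) 7 and Slc18a2 (the vesicular monoamine transporter) 8. Of the list of 21 sympathetic neuron genes, 1 was tested and it was not called. Stmn2, a neuronal microtubule protein that other cells can express too, gave 340 reads in WT and 256 in Th-Cre libraries.

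On the adipocyte side, adrenergic receptors and the cAMP pathway leaned upward, with 13 higher and 1 lower of 39 tested, median log2 fold change 0.22. The median over all tested genes was -0.01. Of the 13, 5 encode subunits of PKA: the catalytic subunit genes Prkaca and Prkacb rose by 0.32 ± 0.0649 (adjusted p = 0.00174) and 0.54 ± 0.0997 (adjusted p = 0.0012), and the regulatory subunit genes Prkar1a, Prkar2a and Prkar2b by 0.32, 0.23 and 0.41. Prkaca was at 188 to 255 CPM in WT (median 235) and 266 to 308 in Th-Cre libraries (median 286), without overlap. Pde3b, the phosphodiesterase that breaks down cAMP in response to insulin, rose from a WT median of 178 to 283 CPM (log2 fold change 0.59 ± 0.104 SE, adjusted p = 0.000975). Adenylyl cyclase genes split, with Adcy9 at 0.92 and Adcy6 at 0.23 but Adcy4 at -0.74, all called. The alpha receptor genes Adra1a and Adra1d rose by 0.33 and 0.78. Adrb3, the main beta receptor of mouse adipocytes, ranged widely in both groups, at 127 to 261 CPM in WT (median 161) and 88.4 to 296 in Th-Cre libraries (median 196), and was not called (log2 fold change 0.12 ± 0.238 SE, adjusted p = 0.757). Adrb1 was not called either (log2 fold change 0.16 ± 0.159 SE, adjusted p = 0.502). Without the muscle libraries 3 members were called higher and 0 lower (median 0.22), and without WT 2 or DN2089 2 in place of 1 were lower.

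Fatty acid synthesis genes were higher in Th-Cre mice, with 8 higher and 1 lower of 20 tested, median log2 fold change 0.43. Scd1, the desaturase that makes oleic acid, was at 10445 to 25169.6 CPM in WT (median 13321) and 18034 to 55581 in Th-Cre libraries (median 24324) (log2 fold change 0.98 ± 0.291 SE, adjusted p = 0.019). Elovl6, which lengthens palmitate, rose from a median of 451 to 881 CPM (log2 fold change 0.83 ± 0.199 SE, adjusted p = 0.00566), and Acacb, an acetyl-CoA carboxylase, from 961 to 1458 (log2 fold change 0.46 ± 0.122 SE, adjusted p = 0.00855). Acss2 and Me1, which supply acetyl-CoA and NADPH, rose by 0.95 and 0.90, and the regulator Srebf1 by 0.40. Fasn, fatty acid synthase itself, was at 6165 to 15409 CPM in WT (median 8945) and 11123 to 22051 in Th-Cre libraries (median 20802), and its call was marginal (log2 fold change 0.99 ± 0.339 SE, adjusted p = 0.0398). That call was lost without any 1 of 9 of the 12 saline libraries (WT 7, 8, 9, 11 or 12 or Th-Cre DN2201, DN2099, DN2087 or DN2094; adjusted p up to 0.0883). Elovl1, of very-long-chain synthesis, fell by 0.46 (adjusted p = 0.0147, 0.0598 without WT 12). The number of members higher ran from 3 without WT 9 to 11 without WT 2, and was 4 or 5 without WT 7, 8 or 12 or Th-Cre DN2201, DN2099, DN2087 or DN2094. Without the muscle libraries none of the 20 passed, and their median was 0.36.

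Cholesterol synthesis genes showed a like pattern, with 6 higher and 1 lower of 24 tested, median log2 fold change 0.27. Lss, which closes the sterol rings (chromosome 10, 76531588 to 76557138, plus strand), was at 20.5 to 30.4 CPM in WT (median 26.8) and 34.1 to 47.5 in Th-Cre libraries (median 40), without overlap (log2 fold change 0.65 ± 0.17 SE, adjusted p = 0.00874). Idi1, which isomerizes the isoprene unit, rose by 0.69 ± 0.182 (adjusted p = 0.00997). Ebp, a sterol isomerase, fell by 0.39 (adjusted p = 0.00618). Without the muscle libraries neither Lss (0.54, adjusted p = 0.176) nor Idi1 (0.69, adjusted p = 0.112) was called, and the list had a median of 0.24.

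The list of glucose uptake and glycolysis genes, which includes pyruvate dehydrogenase and its kinases, leaned upward, with 7 higher and 0 lower of 26 tested, median log2 fold change 0.21. Besides the called genes described below, Pfkm (0.32), Pdk2 (0.33) and Txnip (0.46) were called higher. The glycolytic enzyme genes Gapdh, Pgk1, Eno1, Pkm and Ldha were not called. Hk1, a hexokinase, rose by 0.62 ± 0.14 (adjusted p = 0.00384). Pdha1, a subunit of pyruvate dehydrogenase, was at 1242 to 2039.5 CPM in WT (median 1367) and 1612 to 2269 in Th-Cre libraries (median 2099) (log2 fold change 0.50 ± 0.119 SE, adjusted p = 0.00445). Pdk4, the kinase that shuts that enzyme off, rose as well, from 895 to 1376 CPM in WT to 1381 to 1832 CPM in Th-Cre libraries (log2 fold change 0.59 ± 0.113 SE, adjusted p = 0.00144). Slc2a4, the insulin-responsive glucose transporter, barely passed (log2 fold change 0.27 ± 0.0984 SE, adjusted p = 0.0478), and lost its call without any 1 of 7 libraries (WT 9, 11 or 12 or Th-Cre DN2201, DN2099, DN2087 or DN2094; adjusted p up to 0.127). Muscle tissue is rich in several of these transcripts, whose part in the list was not tested, and without the muscle libraries none of the 26 passed, with Pdk4 at 0.40, adjusted p = 0.101, Hk1 at 0.66, adjusted p = 0.0574 and a median of 0.09.

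Genes of fat stores and their release went both ways. Of lipolysis and lipid droplet genes 3 rose and 2 fell of 16 (median 0.02). The droplet coat genes Plin4 and Plin1 rose by 0.40 ± 0.0825 (adjusted p = 0.00194) and 0.33 ± 0.087 (adjusted p = 0.00861), and Lipe, hormone-sensitive lipase, was at 804 to 1165 CPM in WT (median 1006) and 1095 to 1421 in Th-Cre libraries (median 1331) (log2 fold change 0.36 ± 0.0981 SE, adjusted p = 0.00951). Hilpda, an inhibitor of the lipase Pnpla2, fell by 0.69 (adjusted p = 0.00479), and Pnpla2 itself was not called (0.09 ± 0.0727, adjusted p = 0.363). Lipid uptake genes had 3 higher and 2 lower of 15 tested, median log2 fold change 0.09: the receptor genes Vldlr and Lrp1 rose by 0.43 and 0.42 and Apoc1, an apolipoprotein, fell by 0.70 (the only 1 lower when any WT library but WT 2, or DN2201, DN2099, DN2087 or DN2089, was left out), while Lpl (0.02 ± 0.15, adjusted p = 0.944) and Cd36 (0.09 ± 0.0699, adjusted p = 0.34) were not called. Triglyceride synthesis genes had 3 higher and 1 lower of 14 tested, median log2 fold change 0.03. With 1 library left out 1 to 5 of them were higher (1 without WT 8, 11 or 12 or DN2087) and 0 to 1 lower. Lpin1, a phosphatidic acid phosphatase of that list, rose by 0.73 ± 0.145 (adjusted p = 0.00193) without overlap. In the libraries with no muscle transcripts 0 lipolysis, 0 triglyceride synthesis and 2 lipid uptake genes were called, the latter including Lrp1 (0.53, adjusted p = 0.0491).

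Brown adipocyte identity and heat production genes went both ways, with 5 higher and 5 lower of 27 tested, median log2 fold change 0.19. Ucp1 was lower in Th-Cre mice, at 3843 to 6159 CPM in WT (median 4641) and 2550.3 to 3981 in Th-Cre libraries (median 3735), with partly overlapping ranges (log2 fold change -0.44 ± 0.124 SE, adjusted p = 0.0122). Cox8b and Cox7a1, small cytochrome oxidase subunits of brown fat and muscle, were at -0.77 ± 0.129 (adjusted p = 0.000885) and -0.52 ± 0.113 (adjusted p = 0.00287), both called and both without overlap. The regulators Esrrg and Ppara rose: Ppara was at 26.4 to 86.1 CPM in WT (median 51.2) and 88.6 to 102 in Th-Cre libraries (median 93.2) (log2 fold change 0.83 ± 0.207 SE, adjusted p = 0.00713) and Esrrg at 5.72 to 12.6 CPM in WT (median 9.28) and 13.3 to 23.2 in Th-Cre libraries (median 20.2) (log2 fold change 0.98 ± 0.217 SE, adjusted p = 0.00376). Neither range overlapped. The cofactor Ppargc1a (0.21 ± 0.196, adjusted p = 0.449), the deiodinase Dio2 (0.19 ± 0.233, adjusted p = 0.574), Cidea (-0.16 ± 0.0669, adjusted p = 0.0849) and the identity factor Prdm16 (0.01 ± 0.274, adjusted p = 0.975) were not called. With WT 7, 8 or 9, DN2201 or DN2087 left out, 3 members in place of 5 were lower. Without the muscle libraries Cox8b stayed called (-0.83, adjusted p = 0.0291), while Ucp1 (-0.39, adjusted p = 0.144), Cox7a1 (-0.57, adjusted p = 0.0559), Esrrg (0.91, adjusted p = 0.0788) and Ppara (0.73, adjusted p = 0.0834) were not.

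Most genes of the ribosome and of oxidative phosphorylation, short and abundant transcripts, were lower in Th-Cre mice. Of 78 cytosolic ribosomal protein genes, 74 fell and 0 rose (median -0.43). Of 72 nuclear genes of oxidative phosphorylation, 57 fell and 1 rose (median -0.36). In the libraries with no muscle transcripts 8 and 16 of them were called lower, at medians of -0.44 and -0.38. Rpl27a, a protein of the large ribosomal subunit, was at 55.5 to 85.6 CPM in WT (median 71.7) and 39 to 53 in Th-Cre libraries (median 49.2) (log2 fold change -0.61 ± 0.115 SE, adjusted p = 0.00126). Ndufa1, a small complex I subunit, was at 172 to 279 CPM in WT (median 227) and 143 to 156 in Th-Cre libraries (median 149) (log2 fold change -0.63 ± 0.0988 SE, adjusted p = 0.000489). In both genes the groups did not overlap. The 1 gene of oxidative phosphorylation that rose was Ndufs1, the large iron-sulfur subunit of complex I (0.39, adjusted p = 0.0077). The mean level of the ribosomal list was 6.28 to 6.51 log2 CPM in the Th-Cre libraries, 6.47 in WT saline 2 and 6.76 to 7.01 in the other 5 WT libraries.

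Transcript length moved with these results across all genes. In the shortest quintile of genes by longest annotated transcript (up to 1949 bases), 2.6% were called higher and 25.6% lower in Th-Cre mice, while in the longest quintile (from 5328 bases) it was 17.8% and 7.52%. Median log2 fold changes were -0.18 and 0.06. By GC content of the transcript, 19.1% of the richest quintile and 7.56% of the poorest quintile were called lower. A length index, the mean log2 CPM of the shortest quintile minus that of the longest, was -0.46 to -0.31 in Th-Cre libraries, -0.34 in WT saline 2 and -0.23 to -0.16 in the other WT libraries. The group difference was -0.17 (exact two-sided permutation p = 0.00433, adjusted p = 0.0577 over the 20 per-library values tested). In the DCZ mice it was -0.17 (exact permutation p = 0.00433).

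**Figure D3:**
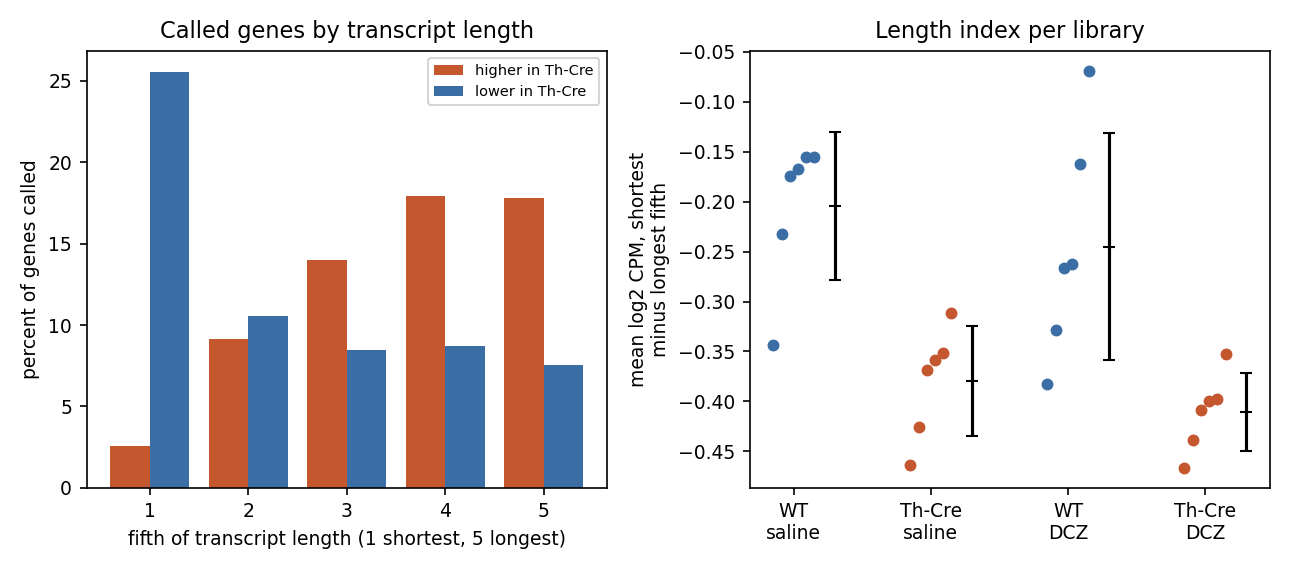
Left, percent of genes called higher (orange) or lower (blue) in Th-Cre saline mice in each quintile of transcript length. Right, the length index (mean log2 CPM of the shortest quintile of genes minus that of the longest quintile) in each library of the 4 groups, with mean and SD of 6 at the right; Th-Cre libraries sit at -0.31 or lower under saline and overlap WT saline in 1 library, WT 2.

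Of the ribosomal genes 64, and of the oxidative phosphorylation genes 55, belong to the shortest quintile, where the other 2501 genes had a median of -0.17 with 22.4% called lower. The 14 longer ribosomal genes had a median of -0.39 (12 lower), and the 16 longer oxidative phosphorylation genes with a known length one of -0.18 (7 lower, 1 higher). When each library's trend with length and GC content was taken out, an alternative chosen after the trend was seen, 2730 genes were called (20.8%), 2236 of them called before too. Ribosomal genes then had 39 lower and a median of -0.21, and oxidative phosphorylation genes 28 lower and -0.11. Cox7a1 was no longer called (-0.11, adjusted p = 0.289) and Cox8b stood at -0.34 (adjusted p = 0.015). Fatty acid synthesis kept a median of 0.47 with 6 higher, and the cAMP list 0.18 with 10 higher.

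The mRNAs encoded by mitochondrial DNA did not move as a block. Of 13, 2 rose and 4 fell, and with 1 saline library left out in turn 1 to 2 rose (1 without any but WT 2) and 2 to 4 fell (2 without WT 8, 9 or 12, DN2201, DN2099, DN2087 or DN2094). mt-Nd3 of complex I fell by 0.64 ± 0.112 (adjusted p = 0.000975) on the log2 scale and mt-Co3 of cytochrome oxidase by 0.45 ± 0.11 (adjusted p = 0.00513), while mt-Nd5 rose by 0.56 ± 0.167 (adjusted p = 0.0173). With the length and GC trend taken out the list's median turned from -0.14 to 0.10, and 4 were higher and 1 lower. Their summed share of counts was 35.6 to 40.6% in WT and 32 to 39.5% in Th-Cre libraries, a difference that did not pass the test (exact permutation p = 0.0758, adjusted p = 0.253). Citric acid cycle genes had 6 higher and 2 lower of 19 tested, median log2 fold change 0.12. Ogdh, Sdha and Cs rose by 0.45, 0.40 and 0.34 and Sdhb fell by 0.51, so that subunits of 1 enzyme, succinate dehydrogenase, went in opposite directions. Without the muscle libraries 0 of the 19 were called higher, Ogdh, Sdha and Cs included, and 1 was lower (median 0.05). With the length and GC trend taken out 6 were higher and 1 lower.

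Markers of vessels were lower in Th-Cre mice. Of 12 endothelial markers 9 fell and 0 rose (median -0.45): Eng, a TGF-beta coreceptor, by 0.86, the sialomucin Emcn by 0.70, the VEGF receptor Kdr by 0.52, the junction genes Cdh5 and Pecam1 by 0.48 and 0.41, and Egfl7, Tek, Tie1 and Flt1 by 0.37 to 0.57. Flt1 lost its call without WT 12 or Th-Cre DN2201, DN2099 or DN2087 (adjusted p up to 0.0967). Of 10 smooth muscle and pericyte markers 6 fell and 0 rose (median -0.34), with the contractile genes Tagln, Myh11 and Acta2 at -0.75, -0.67 and -0.61. In bulk tissue fewer cells of a type and less RNA per cell cannot be told apart. The 12 endothelial markers summed to 898 to 1690.2 CPM in WT (median 1369) and 900 to 1022 in Th-Cre libraries (median 935). As a mean log2 CPM the list was 5.82 in WT saline 2, 6.36 to 6.72 in the other 5 WT and 5.85 to 6.02 in the Th-Cre libraries, so all overlap came from WT saline 2. The difference of -0.45 had an exact permutation p of 0.0152 (adjusted p = 0.0758), and that of the smooth muscle list, -0.39, an exact permutation p of 0.00649 (adjusted p = 0.0577). Taking out the length and GC trend left 9 endothelial and 6 smooth muscle markers lower. Without the muscle libraries 0 and 2 passed, at medians of -0.40 and -0.35.

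Vegfa, the growth factor that adipocytes make for vessels, was also lower, at 479 to 615 CPM in WT (median 541) and 385 to 519 in Th-Cre libraries (median 447) (log2 fold change -0.29 ± 0.0805 SE, adjusted p = 0.0115). Rarres2, the adipokine chemerin, fell by 0.70 (adjusted p = 0.000975), and Rbp4, the retinol carrier, rose by 0.50 ± 0.151 (adjusted p = 0.0195). The list of secreted factors of brown fat had 1 higher and 3 lower of 17 tested (23.5% called, beside 24.5% over all genes tested). Without the muscle libraries 0 of the 17 were called.

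**Figure D4:**
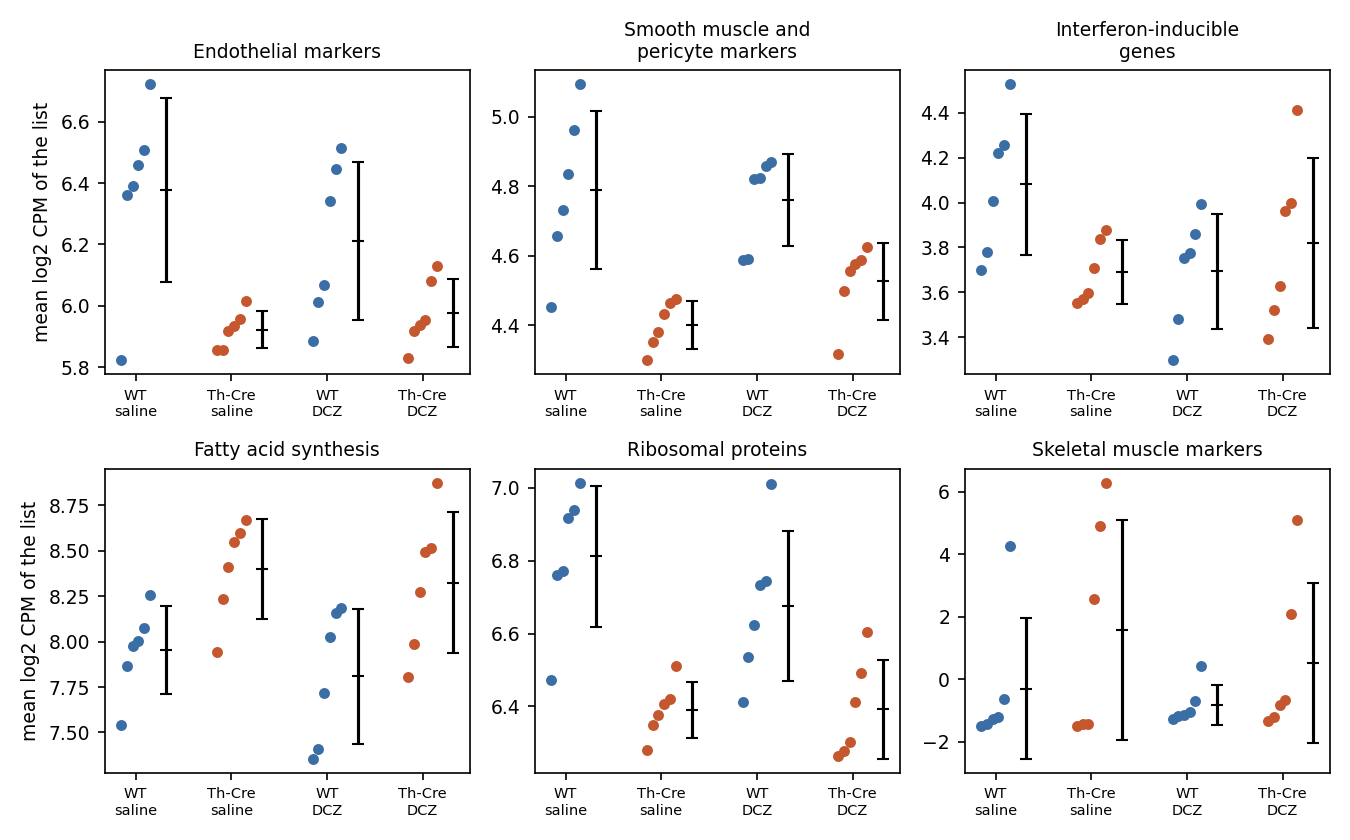
Mean log2 CPM of 6 gene lists in each library of the 4 groups (WT blue, Th-Cre orange; points sorted within a group), with mean and SD of 6 libraries at the right of each group. Endothelial markers lie at 5.85 to 6.02 in Th-Cre saline libraries and at 6.36 or more in 5 of 6 WT saline libraries; skeletal muscle markers stand out in 4 of the 12 saline libraries.

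Interferon-inducible genes were lower in Th-Cre saline mice, 31 of 32 by sign and 11 past the test, with 0 higher (median -0.46). They encode sensors, guanylate-binding GTPases that act on pathogen vacuoles, transcription factors of the pathway and parts of antigen presentation. The Irf and Stat factors bind their promoters at short motifs, and promoters of 4 members that fell are shown with these motifs in capitals: GAAA, 2 free bases, GAAA, or its reverse complement, the core of the interferon-stimulated response element, and TTCNNNGAA, the core of the gamma-activated site, which reads the same on both strands. Each line gives 250 bases before a RefSeq start (GRCm38.p6), 5′ to 3′ on the strand of the gene: Gbp7 (chr3:142530086-142530335, plus strand), Gbp3 (chr3:142559794-142560043, plus strand), Irgm1 (chr11:48871421-48871670, minus strand) and Irf1 (chr11:53769764-53770013, plus strand). Gbp3 and Irf1 each have another RefSeq start, not shown, whose window held 0 matches to either motif.
Gbp7: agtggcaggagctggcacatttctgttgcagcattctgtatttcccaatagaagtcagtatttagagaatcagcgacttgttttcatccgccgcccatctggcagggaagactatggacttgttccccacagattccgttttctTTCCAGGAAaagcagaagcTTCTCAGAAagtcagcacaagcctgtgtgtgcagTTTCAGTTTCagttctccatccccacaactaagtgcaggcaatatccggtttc
Gbp3: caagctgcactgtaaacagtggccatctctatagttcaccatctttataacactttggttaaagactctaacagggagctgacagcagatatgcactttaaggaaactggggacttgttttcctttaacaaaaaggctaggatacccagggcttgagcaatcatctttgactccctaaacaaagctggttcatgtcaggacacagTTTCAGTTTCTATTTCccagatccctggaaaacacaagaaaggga
Irgm1: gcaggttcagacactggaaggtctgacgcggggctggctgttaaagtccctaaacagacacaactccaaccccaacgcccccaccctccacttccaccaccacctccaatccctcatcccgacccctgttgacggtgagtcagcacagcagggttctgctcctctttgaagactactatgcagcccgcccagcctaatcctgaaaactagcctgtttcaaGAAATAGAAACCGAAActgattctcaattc
Irf1: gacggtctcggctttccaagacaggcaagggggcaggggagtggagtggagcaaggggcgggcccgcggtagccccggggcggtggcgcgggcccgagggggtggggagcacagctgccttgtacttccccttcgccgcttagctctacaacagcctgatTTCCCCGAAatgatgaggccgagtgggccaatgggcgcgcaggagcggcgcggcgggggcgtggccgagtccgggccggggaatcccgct
The first motif occurred in 15 of the 27 tested members with a RefSeq promoter (55.6%) and in 3.46% of all 27025 genes, and the second in 9 (33.3%) and 8.13%. Among the 10 called members with a promoter, 5 held the first and 4 the second, near the shares of the whole list. A match is a description of these bases and not a bound site.

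Gbp4, a guanylate-binding protein (chromosome 5, 105115767 to 105139586, minus strand), was at 26.5 to 90.8 CPM in WT (median 39.3) and 15.9 to 20.8 in Th-Cre libraries (median 19). The Th-Cre libraries were tightly grouped below every WT library (log2 fold change -1.29 ± 0.29 SE, adjusted p = 0.00438). Gbp7, whose promoter holds both motifs, was at 14 to 41.4 CPM in WT (median 21.7) and 11.3 to 15.6 in Th-Cre libraries (median 12.6) (log2 fold change -0.83 ± 0.218 SE, adjusted p = 0.00964), and Gbp3 fell by 0.61 (adjusted p = 0.0272). Tgtp2, a GTPase of the immunity-related family that is nearly identical to its neighbour Tgtp1 so that their reads can be exchanged, fell by 1.36 (adjusted p = 0.0112), and Tgtp1 by 1.11 (adjusted p = 0.03). The pathway's own factors Irf9, Irf1 and Stat2 fell by 0.50, 0.47 and 0.46. Usp18, which turns the receptor off, was the 1 member with a positive value (1.02, adjusted p = 0.0503, not called). None of the 18 tested NF-kB targets was called (median -0.18), but without WT 2 there were 2 lower and 1 higher, without DN2089 2 higher, without DN2099 1 lower, and with the length and GC trend taken out 2 higher and 1 lower. Without WT 2, 14 interferon genes were lower. The NF-kB list had 6 members at an unadjusted p under 0.05, and DESeq2 called 3 and limma-voom 0. Without WT 11, WT 12 or Th-Cre DN2087 the interferon count was 6, 6 or 7. With the length and GC trend taken out 11 members were lower and 1 higher, and without the muscle libraries 0 passed (median -0.33).

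Plasma cell transcripts were higher in Th-Cre mice. Igha, the constant region of immunoglobulin A (chromosome 12, 113254830 to 113260236, minus strand), was at 0 to 0.229 CPM in WT (median 0.0323) and 5.52 to 72.2 in Th-Cre libraries (median 24.8), from 7 reads over all WT and 3294 over all Th-Cre libraries. Igkc, the kappa light chain, was at 0.776 to 7.49 CPM in WT (median 4.29) and 6.33 to 85.6 in Th-Cre libraries (median 18.2), and Jchain, which joins secreted IgA and IgM, at 0.129 to 2.75 CPM in WT (median 0.83) and 2.05 to 17.8 in Th-Cre libraries (median 5.34). The fitted value of Igha rests on few WT reads. The log2 fold changes of Igha, Igkc and Jchain were 8.86 ± 1.12 (adjusted p = 0.000308), 2.95 ± 0.716 (adjusted p = 0.00683) and 2.94 ± 0.665 (adjusted p = 0.00455), and Ighg2c stood at 3.38 ± 1.04 (adjusted p = 0.0243). Ighg2c lost its call without WT 7, 9 or 11 or Th-Cre DN2201 or DN2099 (adjusted p up to 0.0711). The spread among Th-Cre mice was wide for Ighg2c as well, at 0.356 to 13.2 CPM. The B cell gene Cd79b went the other way (-1.29, adjusted p = 0.0423) and lost its call without any 1 of 9 libraries. T cell, macrophage and mast cell markers had 0 called of 5, 11 and 4 tested by the edgeR test, with 2 of the macrophage markers at an unadjusted p under 0.05 and 0 called by DESeq2 or limma-voom.

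Imprinted genes, of which several control growth, had 3 higher and 7 lower of 28 tested, median log2 fold change -0.20. The share called was 35.7%, beside 24.5% over all genes tested. Without the muscle libraries 0 of the 28 were higher and 1 lower (median -0.26). Dlk1, a Notch-like inhibitor of adipocyte differentiation (chromosome 12, 109452823 to 109463336, plus strand), was at 1.36 to 6.12 CPM in WT (median 4.02) and 0.647 to 1.54 in Th-Cre libraries (median 1.01), with a small overlap (log2 fold change -1.92 ± 0.347 SE, adjusted p = 0.00116). In females alone it was the 1 gene called (-2.58 ± 0.356, adjusted p = 0.0428), with 2843 genes at an unadjusted p under 0.05. Cdkn1c, a brake on the cell cycle, was at 32 to 52.5 CPM in WT (median 44.6) and 23.3 to 30.2 in Th-Cre libraries (median 26.9) (log2 fold change -0.71 ± 0.139 SE, adjusted p = 0.0018), and the growth factor gene Igf2 at 12.1 to 17.6 CPM in WT (median 14.3) and 7.44 to 14.7 in Th-Cre libraries (median 9.42) (log2 fold change -0.56 ± 0.131 SE, adjusted p = 0.00434). Nnat, an imprinted membrane protein that overlaps Blcap, was at 4.92 to 26.5 CPM in WT (median 13.5) and 0.446 to 15 in Th-Cre libraries (median 4.08) (log2 fold change -1.56 ± 0.539 SE, adjusted p = 0.0413), a call lost without any 1 of 8 libraries (all but WT 2, WT 7, DN2087 and DN2089; adjusted p up to 0.091).

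Of 33 immediate early genes, which answer within minutes to acute signals, 3 were lower (Gadd45b, Klf4 and Ier5) and 0 higher, with a median of -0.27. The share lower was 9.1%, beside 12.2% over all genes tested. Gadd45b lost its call without WT 9, Klf4 without any 1 of 6 and Ier5 without any 1 of 6 libraries (adjusted p up to 0.0568, 0.0734 and 0.0822), and the count was 7 without WT 2, 1 without WT 12 or DN2089 and 0 without WT 9. Fos was at 21.6 to 110 CPM in WT (median 43.1) and 21.5 to 117 in Th-Cre libraries (median 35.1) (log2 fold change -0.05 ± 0.485 SE, adjusted p = 0.949). Jun (0.10 ± 0.239, adjusted p = 0.782) and Dusp1 (-0.31 ± 0.193, adjusted p = 0.254) were not called. Of 20 clock genes Csnk1d and Cry2 rose (10%, beside 12.3% over all genes tested), by 0.34 and 0.31. Without WT 2 there were 5 higher and 2 lower and without DN2089 4 higher and 1 lower. The clock loop genes Per1, Per2, Nr1d1 and Arntl and the clock output Dbp, whose levels follow the time of day, were not called, at -0.05, -0.22, 0.13, 0.10 and 0.15 (adjusted p = 0.405 or more). Glucocorticoid responsive genes had 3 higher and 2 lower of 20 tested (25% called, beside 24.5% over all genes tested). Their median log2 fold change was -0.17, with 1 lower without WT 9 or 12 or any 1 Th-Cre library. Zbtb16, a member of that list, averaged 8.12 ± 3.66 CPM in WT and 27.4 ± 26.7 in Th-Cre mice (SD, n = 6; log2 fold change 1.69 ± 0.591 SE, adjusted p = 0.0431) and stood at 0.10 (adjusted p = 0.933) without the muscle libraries. Its call was lost without any 1 of 7 libraries (WT 2, 7, 9, 11 or 12, DN2094 or DN2086).

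The Th-Cre line carries its insertion at the Th locus. Th lies on chromosome 7 (142892752 to 142931128, minus strand, GRCm38). Of genes within 1 Mb 8 of 26 were called (30.8%, beside 24.5% over all genes), within 5 Mb 19 of 86 (22.1%) and within 10 Mb 24 of 101 (23.8%). The called neighbours within 5 Mb were 14 lower and 5 higher. Besides Igf2, Cdkn1c and Cox8b they included Cd81, a tetraspanin (-0.28), the small GTPase Hras (-0.37), Polr2l, a small RNA polymerase subunit (-0.60), and the histone chaperone Nap1l4 (0.24). By autosome the share called ran from 21.2% (chromosome 13) to 30.4% (chromosome 18).

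Mice given DCZ offer the same genotype contrast in other animals, although both genotypes had received the ligand and the libraries carry the same split of numbers. In fits that share no library, 3286 genes were called in the 12 saline and 1060 in the 12 DCZ libraries (8.38% of 12647 tested). Of the 3279 genes called under saline and tested in both, 94.9% had the same sign in the DCZ mice, beside 76.6% of all 12412 genes. The 643 genes called in both fits were 19.6% of the genes called under saline and 61.1% of those called under DCZ, and 641 of them had 1 direction. Ube2ql1 (4.90), Dlk1 (-2.22), Cox8b (-0.70), Ppara (0.88) and Ucp1 (-0.96) were called in the DCZ mice too. Ribosomal and oxidative phosphorylation genes had medians of -0.29 and -0.26 there, with 18 and 13 called lower. Fatty acid synthesis had a median of 0.39 with 3 higher, and endothelium -0.23 with 2 lower. Immediate early genes, at a median of -0.27 under saline, stood at 0.84 in the DCZ mice, with 14 higher and 1 lower of 33. In edgeR's test of the difference between the saline and DCZ contrasts, 0 of them were called and 23 had an unadjusted p under 0.05. Interferon-inducible genes had 0.15, with 1 lower, and Gbp4 0.04 (adjusted p = 0.949).

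**Figure D5:**
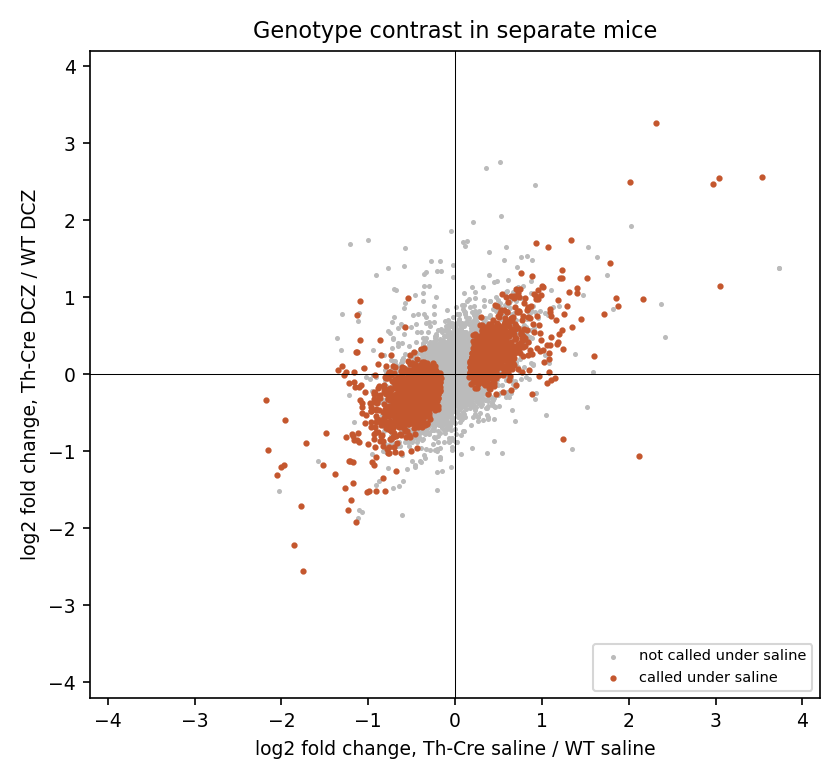
Log2 fold change of Th-Cre over WT in the 12 saline libraries (x axis) and in the 12 DCZ libraries (y axis), fitted apart, for 12412 genes (orange: called under saline; grey: not called). Called genes lie mostly in the lower left and upper right, 94.9% with the same sign; 4 genes lie outside the axes.

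Whether the genotype difference itself was of another size under saline and DCZ was tested as an interaction over all 24 libraries. Arl4d, a small GTPase, alone passed (0.00762% of genes): it was at 3.16 to 5.88 CPM in WT (median 3.86) and 2.2 to 3.83 in Th-Cre libraries (median 2.47) under saline (log2 fold change -0.55 ± 0.151 SE, adjusted p = 0.0109), and the contrast was lower than in DCZ mice by 1.53 ± 0.215 (adjusted p = 0.00177). No member of the interferon list passed this test, but 17 of its 32 tested members had an unadjusted p under 0.05. Over all 13129 tested genes 939 had one. Gbp4 stood at -1.34 ± 0.405 (adjusted p = 0.638). Between the sexes 0 genes differed in their genotype contrast under saline by the edgeR test, with 595 at an unadjusted p under 0.05. Fitted in each sex alone, with 3 against 3, males gave 758 called genes and females 1, which is not a test of a difference between them.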

How the data were processed

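Polyadenylated RNA of interscapular brown fat was sequenced in 24 mice, 6 in each of 4 groups. The authors deposited a table of estimated counts per gene, and per the submitters' processing notes the tool was kallisto 0.44.0 and the build GRCm38.p6. Its values are whole numbers for 36144 genes. The summed counts of each library lie within 205 of the pseudoaligned reads in the deposited alignment summary. That summary also gives the percent pseudoaligned per library, 84.2 to 88.2% under saline per the file headers. The transcript set and the strand setting were not stated, so reads of overlapping genes and close copies could not be told apart.

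Genes were filtered by edgeR 4.0.16 (filterByExpr by group, in R 4.3.3), which left 13129. TMM factors and a robust quasi-likelihood fit over all 24 libraries with terms for group and sex gave the saline genotype contrast, with Benjamini-Hochberg adjustment over all tested genes. SEs were derived from each log2 fold change and its F statistic. Alternatives were limma 3.58.1 (voom), DESeq2 1.42.0, other factors and filters, a fold of 1.2 as threshold, subsets of libraries, each library left out, and an offset for transcript length and GC content (loess span 0.3). The code was tested on simulated data. Per-library values were compared by exact permutation over 924 arrangements (two-sided, the smallest p is 0.00216), or over 56 without the muscle libraries. Replicates are separate mice per the labels. Positions, lengths and GC content came from GENCODE M21 (GRCm38), which matched 99.3% of the symbols, and promoters from RefSeq (GRCm38.p6).

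Named genes were the 10 largest rises and falls among called genes with an established symbol and an average level of 1 log2 CPM or more, the 5 smallest adjusted p, up to 4 called members of each list, called genes within 5 Mb of Th, called markers and a short set given whether called or not. Some genes that these rules pick are not reported here. Further list members were chosen after their values were seen. Members and lists were chosen with earlier results of these data known. Gene lists are described by counts and medians, with no test of the list.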

Additional observations from a re-analysis of the deposited data

Results flagged for a closer look

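Libraries that lay apart from the other 5 of their group by the size of the gap were looked for in 340 groups of 6, both genotypes under saline for the genes reported by rule and 4 values per library. They were found in 31 groups, where chance gives about 1 in 20 groups, and genes that move together share a library. WT saline 2 stood apart in 13 genes, in each of them on the side of the Th-Cre mice. In mitochondrial metabolism it was high in Ogdh at 2370 (group median 1668), Sdha at 2470 (group median 1785), Pdha1 at 2040 (group median 1367), Hadha at 2410 (group median 1735), Hadhb at 3450 (group median 2535) and mt-Nd5 at 15800 (group median 9728) CPM. Among genes of cAMP signalling and lipid handling it was high in Pde3b at 255 (group median 178), Prkacb at 52 (group median 37.1) and Elovl6 at 750 (group median 451) CPM, and low in Gpihbp1, which anchors lipoprotein lipase to capillaries, at 63.6 (group median 116) CPM. Nfe2l1 was at 425 (group median 290.2) and the chaperone partner St13 at 116 (group median 96.1) CPM, both high, and Psmb4 was low at 58.9 (group median 81.1) CPM.

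Among the Th-Cre libraries, DN2089 was low in Elovl6 at 512 (group median 881), Pdha1 at 1610 (group median 2099) and Rbp4 at 94.2 (group median 129) CPM and high in Tssc4, a gene near Th, at 12.4 (group median 8.71) CPM. DN2086 was high in mt-Nd3 at 4320 (group median 3586), Igf2 at 14.7 (group median 9.42) and the neutrophil gene S100a9 at 2.85 (group median 1.31) CPM. DN2087 was high in the acute response genes Jun at 118 (group median 53.9) and Dusp1 at 87.8 (group median 65.4) CPM, and DN2094 low in the fatty acid transporter Cd36 at 1480 (group median 1659) CPM. DN2086, DN2087 and DN2094 hold skeletal muscle transcripts, and their part in these values was not tested. Ighg2c was high in DN2099 at 13.2 (group median 2.24) and Itih4, a plasma protein gene, in DN2201 at 31 (group median 1.93) CPM. Without DN2201 the log2 fold change of Itih4 was 0.41 and no longer called (adjusted p = 0.392).

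In the other WT libraries, WT 8 was high in Zbtb16 at 15 (group median 7.58), Hras at 43.4 (group median 35.2) and Arl4d at 5.88 (group median 3.86) CPM, WT 9 in Fos at 110 (group median 43.1) CPM and WT 11 in Rbp4 at 115 (group median 86.4) CPM, while WT 11 was low in Ebp at 13.6 (group median 19.3) CPM.

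The genotype contrast of Arl4d differed between saline and DCZ mice by -1.53 on the log2 scale in edgeR's test of that difference (adjusted p = 0.00177). It was lower in Th-Cre mice under saline (-0.55) and higher under DCZ (0.98, adjusted p = 0.0038). Under DCZ it averaged 2.11 ± 0.393 CPM in WT and 4.17 ± 0.778 in Th-Cre mice (SD, n = 6).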

How the results depend on the processing

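No paired analysis was possible because the replicate labels of the genotypes share no number. Beside 3213 genes called with every library, 2298 to 4221 were called with 1 of the 12 saline libraries left out (fewest without WT 12, most without WT 2), 1175 to 2186 higher and 1123 to 2035 lower. Against a fold of 1.2 the call count was 136 (50 higher, 86 lower), without the muscle libraries 278 (137 and 141), and with the length and GC offset as well 192 (102 and 90). Males alone gave 758 (366 and 392) and females alone 1 (0 and 1). The other 11 settings lay between 2645 and 3513. The DCZ mice gave 1060 genes when fitted alone, 1777 in the fit of all 24 libraries and 148 without DN2075 and DN2091. The test between saline and DCZ gave 2 genes without the muscle libraries (4931406P16Rik and Arl4d), and that between the sexes 1 (Gm2446). The subsets hold fewer libraries, and what else bears on their counts was not tested. Of the 154 called genes named by rule, 123 kept their call whichever saline library was left out. With the length and GC offset the median of the mitochondrially encoded mRNAs turned to 0.0972 and that of the brown adipocyte markers to 0.10, and Ifitm2, called at -0.22, turned to 0.135 (0.203 without the muscle libraries as well); the cause was not tested. The other reversals were of genes not called. With the offset they were Cidea (0.1, and 0.0714 without the muscle libraries), Prdm16 (-0.0202), Lpl (-0.0605) and Fos (0.0153). Jun was at -0.211 without the muscle libraries, -0.204 with the offset too and -0.0177 with the muscle score as covariate. Prdm16 was at -0.0198 in the saline libraries alone, -0.00321 with no term for sex, -0.0091 with upper-quartile factors (Lpl -0.0082) and -0.0931 in limma-voom. In females alone Prdm16 was at -0.419, Adrb1 at -0.226, Lpl at -0.0907, Per1 at 0.321 and Per2 at 0.117, and in males alone Ppargc1a at -0.0636. With 1 library left out in turn, values ran from -0.258 to 0.158 for Prdm16, -0.0076 to 0.258 for Adrb3, -0.0976 to 0.068 for Lpl, -0.149 to 0.137 for Per1, -0.0864 to 0.218 for Arntl, -0.355 to 0.177 for Fos and -0.0874 to 0.224 for Jun. At 11.9 to 18.8 M counts per library a count of 0 allows a level of up to 0.16 to 0.251 CPM (3 reads; counting error only), so small differences of genes such as Chrm1 were not detectable.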

Other observations

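Genes of protein quality control went both ways. Of the proteasome list 3 higher and 8 lower of 33 were called (median -0.06). The core particle genes Psmb6 and Psmb4 fell by 0.30 and 0.37, while the regulatory particle genes Psmd1 and Psmd11 rose by 0.32 and 0.27 and another, Psmd4, fell by 0.22 (adjusted p = 0.049). The list also holds Nfe2l1, a transcription factor of proteasome genes that is active in brown fat. Its rise (0.57, adjusted p = 0.00133 by edgeR) is counted among the 3 higher. With the length and GC offset the list had 6 higher and 2 lower, and with 1 library left out 3 to 10 were lower (5 or fewer without WT 8, 9, 11 or 12 or any Th-Cre library but DN2099). Stress response genes had 6 higher and 2 lower of 31 (25.8% called, beside 24.5% over all genes tested). The endoplasmic reticulum sensors Atf6 and Ern1 rose by 0.40 and 0.39. Atf4, the factor of the integrated stress response, fell by 0.51 (adjusted p = 0.00213) together with Phgdh, an enzyme of serine synthesis (-0.82). Heat shock chaperones had 4 higher and 0 lower of 21 (19% called), among them Hsp90ab1 (0.30) and the mitochondrial chaperonin Hspd1 (0.30). Antioxidant enzymes had 3 higher and 9 lower of 26 (median -0.17). The glutathione peroxidases Gpx1 and Gpx4 fell by 0.50 and 0.42 and the peroxiredoxin Prdx5 by 0.42, while catalase (Cat, 0.25) and Txnrd1 (0.30) rose. Without WT 7, 5 in place of 9 were lower, and without DN2086, 5 in place of 3 were higher. Without the muscle libraries 1, 0, 0 and 3 members of the proteasome, stress response, heat shock and antioxidant lists were called.

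In mitochondrial fatty acid oxidation 4 higher and 2 lower of 22 were called (27.3%, beside 24.5% over all genes tested). With 1 library left out 1 to 3 were lower (1 without WT 7, 9, 11 or 12 or DN2201, DN2099, DN2087 or DN2086). Without the muscle libraries 0 of the 22 were called. Both subunits of the trifunctional protein, Hadha and Hadhb, rose by 0.30 and 0.33, and Acsl1, which activates fatty acids, by 0.41, while Etfb, a short electron carrier subunit, fell by 0.45. Extracellular matrix genes had 1 higher and 2 lower of 26 (11.5% called) and a median of 0.09, and without WT 12 none of them was called. Fibroblast and preadipocyte markers had 0 higher and 1 lower of 11, Ly6a (-0.56). Without the muscle libraries 0 of the 11 were called (median 0.31). Their mean log2 CPM was then 0.35 higher in Th-Cre mice (exact permutation p = 0.0179 over 56 arrangements, not adjusted). With all 12 libraries the difference was -0.01 (exact permutation p = 0.935). The mean log2 CPM of 9 Schwann cell markers was 2.57 ± 0.358 in WT and 1.97 ± 0.486 in Th-Cre mice (SD, n = 6; exact permutation p = 0.0455, adjusted p = 0.182). Neutrophil markers were rare, at 1.29 to 3.11 CPM in sum in WT and 2.86 to 5.52 in Th-Cre libraries (exact permutation p = 0.00866 on the mean log2 CPM, adjusted p = 0.0577). Erythroid, white adipocyte and lymphatic markers had 0, 0 and 1 called of 5, 4 and 4, and skeletal muscle markers 0 of 15 (3 at an unadjusted p under 0.05), or 10 higher without WT 12, the 1 WT saline library that holds muscle transcripts.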
